A study of Mus musculus with 8 samples.

Results

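The genes described here encode lysosomal hydrolases, their activator, lysosomal membrane proteins, subunits of the proton pump and transcription factors that act on lysosomal genes. They were chosen by symbol from a list of 37, and 36 of the symbols were found among the 18306 genes of the deposited count table. Ctss was not analysed here. Expression was measured by RNA sequencing in C3H10T1/2 cells, an established mouse embryo mesenchymal line with osteogenic, adipogenic, chondrogenic and myogenic potential in culture. The S1P group had 4 libraries, numbered 5 to 8, from cells given 5 µM sphingosine 1-phosphate (S1P), a bioactive sphingolipid with its own family of cell-surface receptors, for 24 h. The vehicle group had 4 libraries, numbered 1 to 4, from cells given the vehicle, 0.1% fatty acid-free bovine serum albumin. Whether the S1P cells also received albumin is not stated in the labels. Cells of both groups came from this same line and were plated in 10% serum. They had then been without serum for 24 h before treatment, which lasted 24 h in both groups. Separate cultures behind the libraries are not stated in the labels, so each p-value reflects the scatter of these samples alone, and that scatter may be technical.

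Lysosomes are acidic compartments that break down proteins, glycans, lipids and nucleic acids delivered by endocytosis and autophagy. Most of their soluble enzymes are made in the endoplasmic reticulum, tagged with mannose 6-phosphate in the Golgi and carried onward by mannose 6-phosphate receptors, while a vacuolar proton pump (V-ATPase) keeps the lumen acidic. TFEB and TFE3 are transcription factors that move into the nucleus when mTORC1 activity on the lysosome falls, as in starvation, and bind an E-box-like promoter element found upstream of many lysosomal genes. Sphingolipids, from which S1P is made, are themselves degraded in lysosomes with the help of saposins.

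Library totals ran from 13750303 to 13761544 counts, and 3 counts, the most that a reading of 0 leaves room for (counting error only), came to 0.213 to 0.223 CPM. Levels are given in CPM, counts rescaled to a common library total with edgeR's trimmed-mean composition factor. Vehicle replicate 4 stood apart from the other 3 vehicle libraries: its mitochondrial share was 2.504%, against 3.45% to 3.83% in the other 7 libraries. Its deviation from the other vehicle libraries also followed transcript GC content, and member values and role medians that moved by over 1.5 times or changed sign without it are also given without it. Of 10 mesenchymal markers, all were detected and 0 passed the test between groups; the fibrillar collagen gene Col1a2 averaged 5455 CPM in S1P cells and 5319 CPM in vehicle cells, and Col3a1 averaged 3561 CPM and 5681 CPM (adjusted p = 0.0571). Of 8 macrophage and other blood cell markers found, 6 stayed at or below 0.814 CPM in every library, Ptprc, Emr1 and Itgam among them. Their list summed to 9.16 to 14.7 CPM in S1P libraries and 14.2 to 23.8 CPM in vehicle libraries, mostly from Cd14 and Lyz2. Of 5 osteoclast markers, 3 were found, and they summed to 6.28 to 18.4 CPM in S1P libraries and 15.9 to 26.4 CPM in vehicle libraries, nearly all from Itgb3, with Oscar and Calcr at or below 0.148 CPM in every library. The part of these lists in the lysosomal values was not tested.

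After S1P, lysosomal transcripts were mostly lower, by small amounts. Ctsf, a cysteine cathepsin, Neu1, the lysosomal sialidase, and Man2b1, the lysosomal alpha-mannosidase, fell, and no member rose. Of 35 members with enough counts to be tested, 3 were lower and 0 were higher at a Benjamini-Hochberg adjusted p under 0.05 in edgeR's quasi-likelihood test over all genes, which is 8.57% and 0% of them. Among all 11844 genes tested, 2.9% were lower and 5.6% were higher. At an unadjusted p under 0.05, 14 members were lower and 0 were higher, against 11.7% lower and 13.2% higher among all genes. DESeq2 called 13 members lower and 0 higher, against 6.79% lower and 8.16% higher among all genes. The log2 fold change (S1P over vehicle) was negative in 31 of the 35 members, or 88.6%, against 53.9% of all genes tested. Its median was -0.39 in the members and -0.04 in all genes, and their middle ranges (lower to upper quartile) were -0.48 to -0.13 and -0.32 to 0.20. Without vehicle replicate 4, 9 members were lower and 0 higher, against 6.05% lower and 9.49% higher among all genes. The members' median was then -0.22, with 30 of 35 negative (85.7%), and that of all genes 0.0038, with 49.4% negative. Leaving out S1P replicate 5 gave 8 members lower, against 2.87% lower and 4.87% higher among all genes. With vehicle replicate 1 or 3 left out, or an S1P library other than replicate 5, the count was 1, which was Ctsf.

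**Figure D1:**
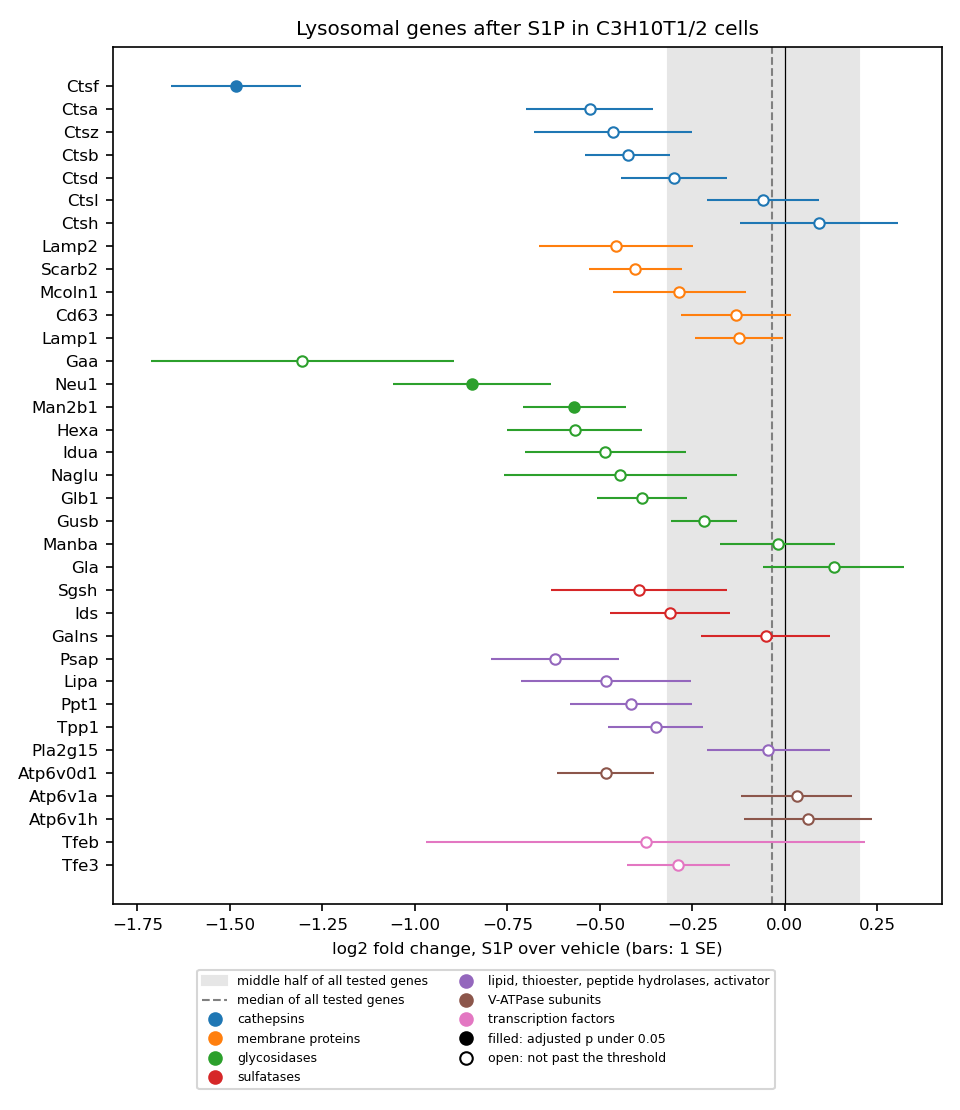
Log2 fold change, S1P over vehicle, of each tested member, with its standard error (4 libraries a group), grouped by role, over a grey band for the middle range of all tested genes (-0.32 to 0.20) with their median as dashes. Filled points passed the adjusted threshold of 0.05; the 3 of them, Ctsf, Neu1 and Man2b1, lie left of 0, and 31 of 35 points are negative.

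The summed level of the members showed the same direction. It was 8831, 7207, 7917 and 7522 CPM in S1P replicates 5 to 8, against 10658, 9570, 10261 and 9744 CPM in vehicle replicates 1 to 4. All 4 S1P libraries were below all 4 vehicle libraries, at means of 7869 ± 704 and 10060 ± 496 CPM (SD, n = 4 each), a ratio of 0.782. This sum gives most weight to abundant members. Psap, Lamp2 and Lipa, none of which passed the test, averaged 1046, 770 and 678 CPM in S1P cells. In vehicle cells they averaged 1610, 1056 and 948 CPM. The members took 0.789% ± 0.072 of the deposited counts in S1P libraries and 1.00% ± 0.0654 in vehicle libraries. In such bulk samples, fewer cells of a type and less RNA per cell cannot be told apart. Member by member, the libraries of the groups did not overlap for 10 members, each lower after S1P, and for 0 members higher. Among all genes, 7.21% were lower and 11.9% higher without overlap. Those 10 were Ctsb, Ctsd, Ctsf, Gaa, Glb1, Gusb, Man2b1, Neu1, Psap and Atp6v0d1. S1P replicate 5 was the highest S1P library in 28 of the 35 members, so it lay nearest to the vehicle libraries for most of them.

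**Figure D2:**
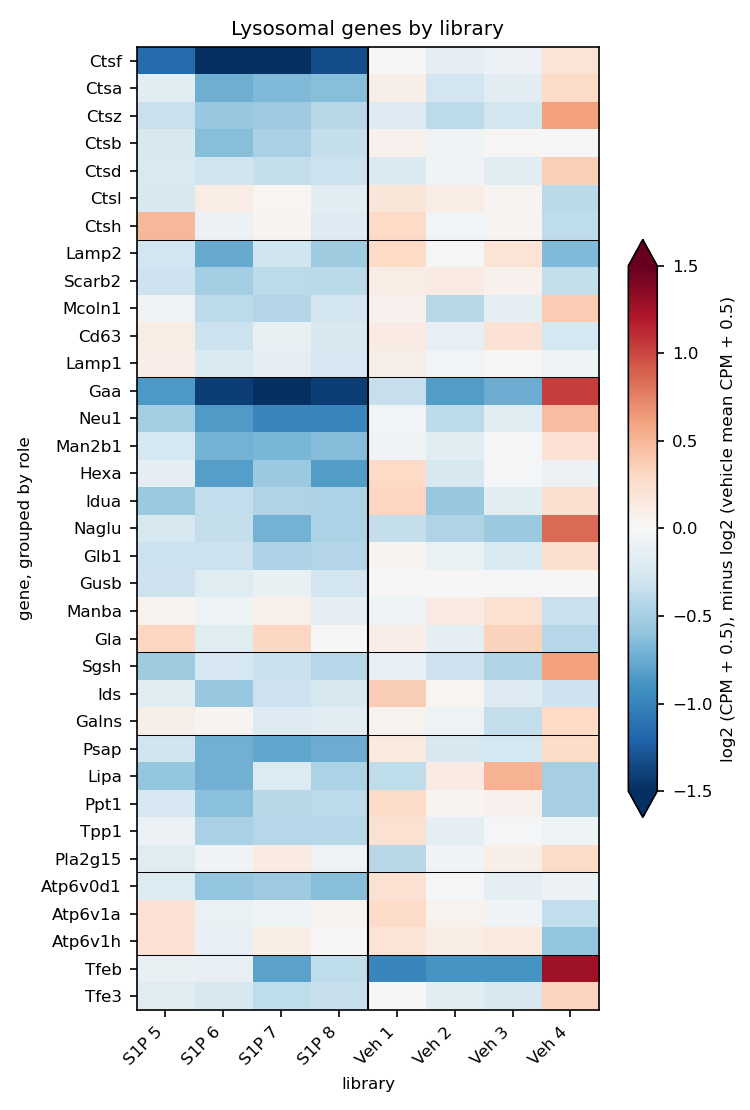
Level of each tested member in each library as a log2 difference from the member's vehicle mean (0.5 CPM added to each value; colours saturate at -1.5 and 1.5), with S1P replicates 5 to 8 on the left and vehicle replicates 1 to 4 on the right. S1P replicate 5 is the highest S1P library in 28 of 35 members, and vehicle replicate 4 is the highest of all 8 in 16 members and the lowest in 6.

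Ctsf had the largest log2 fold change of the 35 tested members. It had 10.9, 6.91, 8.08 and 9.56 CPM in S1P replicates 5 to 8, against 24.8, 22.5, 23.3 and 28.6 CPM in vehicle replicates 1 to 4. Every S1P library was under the lowest vehicle library by a wide margin. The means were 8.86 ± 1.74 and 24.8 ± 2.72 CPM (SD, n = 4 each), 2.80-fold lower after S1P, with a log2 fold change of -1.48 (SE 0.18, adjusted p = 0.00288). This call held in all 18 fits made, and the log2 fold change ran from -1.60 to -1.38 when each library was left out in turn. Ctsf lies on chr19:4854929-4861112 (mm9) and shares 90 bases of its span with Actn3, a skeletal muscle actinin, which also fell (6.08 ± 0.67 CPM in S1P cells and 24.8 ± 10.5 CPM in vehicle cells, log2 fold change -2.03, adjusted p = 0.00419). How reads in shared spans were assigned is not given in the sources used here. Further members share spans with other genes, and not every such pair is listed.

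Neu1, which removes terminal sialic acids from glycoproteins and glycolipids, had 14.7, 11.6, 10.5 and 10.6 CPM in S1P replicates 5 to 8, against 20.7, 16.1, 18.9 and 29.7 CPM in vehicle replicates 1 to 4. The groups did not overlap, with vehicle replicate 4 the highest library. Its means were 11.9 ± 1.97 CPM in S1P cells and 21.4 ± 5.88 CPM in vehicle cells (SD, n = 4 each), and its log2 fold change was -0.85 (SE 0.21, adjusted p = 0.040). Neu1 is on chr17:35067998-35073098 (mm9). Man2b1, which removes mannose from N-linked glycans during glycoprotein breakdown, had 65.1, 47.5, 48.2 and 49.5 CPM in S1P replicates 5 to 8, against 75.2, 69.8, 76.2 and 90.8 CPM in vehicle replicates 1 to 4. S1P replicate 5 alone approached the vehicle range. Its means were 52.6 ± 8.40 and 78.0 ± 8.99 CPM, and its log2 fold change was -0.57 (SE 0.14, adjusted p = 0.0352). Man2b1 is on chr8:87606968-87622838 (mm9). The calls of both depended on the libraries. Neu1 passed in 13 of 18 fits and in 3 of the 8 that left out a library, missing the threshold where vehicle replicate 1 or 3, or any S1P library but replicate 5, was left out (adjusted p up to 0.124). Man2b1 passed in 12 of 18 fits and in 2 of those 8, missing it where any vehicle library but replicate 4, or any S1P library but replicate 5, was left out (adjusted p also up to 0.124). Their log2 fold changes stayed within -0.97 to -0.64 for Neu1 and -0.69 to -0.48 for Man2b1 over all these fits.

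**Figure D3:**
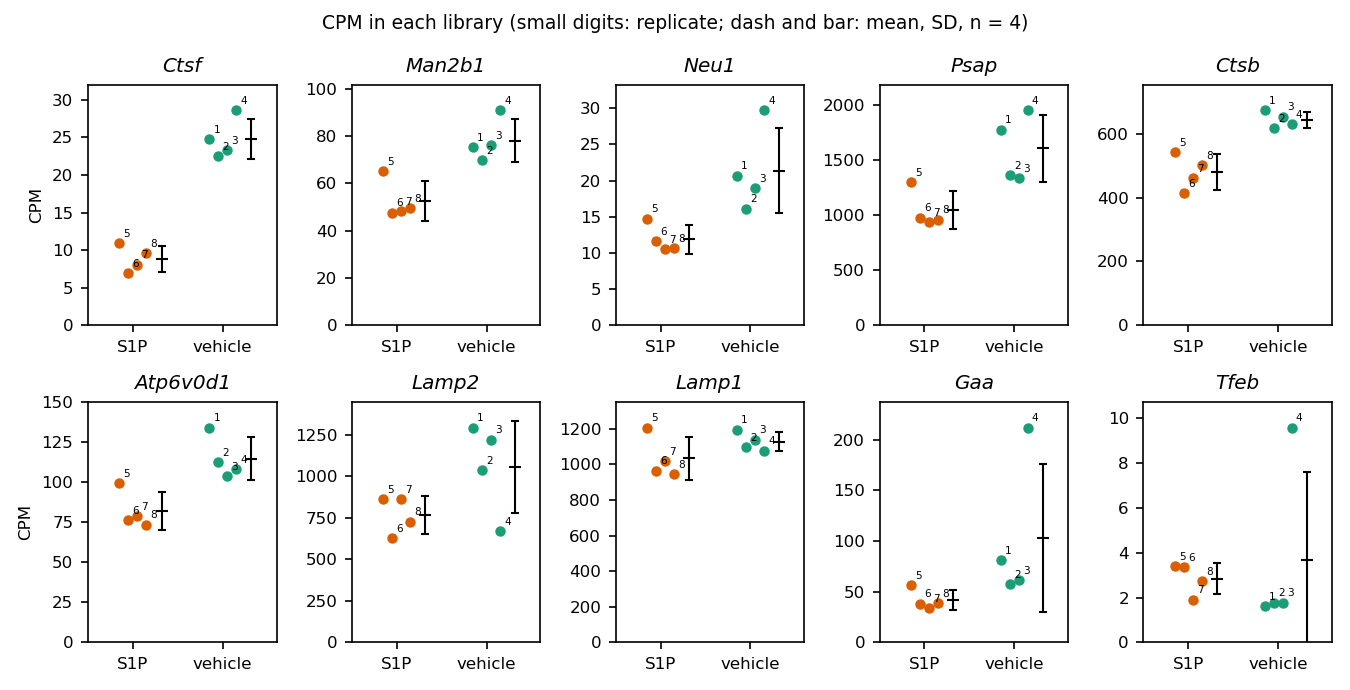
Normalised counts (CPM) in each library for 10 named members, S1P on the left and vehicle on the right of each panel, with the mean and SD of 4 libraries as a dash and bar (the lower end of the vehicle bar of Tfeb is off the axis). For Ctsf the S1P libraries lie between 6.91 and 10.9 CPM and the vehicle libraries between 22.5 and 28.6 CPM; for Lamp1 the groups overlap.

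The stretches before the annotated starts of the 3 members that fell, and of Lamp1, are given for their E-box cores, the sequence contained in the element that TFEB and TFE3 bind. They are the 250 bases upstream of each start, on the plus strand, from RefSeq's GRCm38.p6, a later build than the mm9 of the counts, and capitals mark each CACGTG. Ctsf is at chr19:4854915-4855164, Neu1 at chr17:34931003-34931252, Man2b1 at chr8:85083019-85083268 and Lamp1 at chr8:13158911-13159160.
Ctsf: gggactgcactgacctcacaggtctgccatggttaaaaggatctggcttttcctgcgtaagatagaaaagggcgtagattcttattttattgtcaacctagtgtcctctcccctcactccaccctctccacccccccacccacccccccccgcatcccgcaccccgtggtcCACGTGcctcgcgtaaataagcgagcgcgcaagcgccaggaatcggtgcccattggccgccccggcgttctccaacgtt
Neu1: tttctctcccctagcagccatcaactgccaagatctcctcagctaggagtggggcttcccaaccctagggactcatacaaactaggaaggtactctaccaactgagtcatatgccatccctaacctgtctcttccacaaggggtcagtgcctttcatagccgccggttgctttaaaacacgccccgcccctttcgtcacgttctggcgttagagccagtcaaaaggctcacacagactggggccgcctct
Man2b1: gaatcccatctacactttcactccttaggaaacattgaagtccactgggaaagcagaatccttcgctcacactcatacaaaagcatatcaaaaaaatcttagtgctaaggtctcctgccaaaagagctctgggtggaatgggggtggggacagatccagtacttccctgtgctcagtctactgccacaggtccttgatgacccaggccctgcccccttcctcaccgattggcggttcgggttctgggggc
Lamp1: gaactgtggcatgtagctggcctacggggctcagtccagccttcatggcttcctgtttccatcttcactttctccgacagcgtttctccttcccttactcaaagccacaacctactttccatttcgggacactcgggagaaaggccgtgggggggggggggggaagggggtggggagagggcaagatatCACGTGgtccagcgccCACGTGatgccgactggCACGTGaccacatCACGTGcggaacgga
Ctsf had 1 core, at -79 from the start, which was in neither of the longer forms counted below. Neu1 and Man2b1 had 0. Lamp1, whose difference did not pass the test, had 4 within the last stretch before its start, at -61, -45, -28 and -15. It had the most cores of the members matched to a window, so it does not stand for the members that did not fall.

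In the whole RefSeq windows (250 bases before to 50 bases after a start, 300 in all), CACGTG occurred in 13 of the 32 members matched, or 40.6%. A gene was counted where any of its windows held the sequence. The share was 8.09% of all 27025 genes with a window and 12.1% of tested genes with a window. The longer form TCACGTGA was in 6 members (18.8%), against 0.97% of all windows and 2.37% of tested genes. GTCACGTG or its reverse complement was in 9 members (28.1%), against 2.55% of all genes with a window and 5.08% of tested genes. CACGTG and TCACGTGA read the same on both strands, and both longer forms contain the core. A match is only a run of letters and was not shown to be bound here. The 13 tested members with a core had a median log2 fold change of -0.39, and 1 of them, Ctsf, passed the test. The 18 tested members without it had a median of -0.41, and 2 of them, Neu1 and Man2b1, passed. Without vehicle replicate 4 the medians were -0.16 with a core and -0.40 without it. Atp6v1h, Ctsb, Ctsh and Galns had no matched window.

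The cathepsins are proteases of the lysosomal lumen. Of 7 tested, 1 fell (Ctsf) and 3 were lower at an unadjusted p under 0.05, with a median log2 fold change of -0.42, which was -0.18 without vehicle replicate 4. Among all genes, 2.9% fell and 11.7% were lower by the unadjusted p. Ctsb, an abundant cysteine cathepsin, had 543, 413, 461 and 502 CPM in S1P replicates 5 to 8, against 674, 618, 654 and 631 CPM in vehicle replicates 1 to 4. All S1P libraries were lower, and the adjusted p of 0.0516 lay just outside the threshold (log2 fold change -0.42, SE 0.11). It passed in 8 of 18 fits, among them the fit without vehicle replicate 4 (adjusted p = 0.0306). Ctsb shares 1169 bases of its span with Fdft1, squalene synthase of the cholesterol pathway, which rose (148 ± 20.6 CPM in S1P cells and 64.4 ± 13.2 CPM in vehicle cells, log2 fold change 1.20, adjusted p = 0.00418). Ctsd, the main aspartic cathepsin, had 649, 618, 594 and 610 CPM in S1P replicates 5 to 8, against 655, 734, 676 and 977 CPM in vehicle replicates 1 to 4. The groups came close without overlapping, and vehicle replicate 4 was far above the rest. Its log2 fold change was -0.30 with all libraries (SE 0.14, adjusted p = 0.229) and -0.16 without vehicle replicate 4.

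Ctsa, the serine carboxypeptidase that also protects Neu1 and Glb1 in a complex, averaged 191 ± 37.7 CPM in S1P cells and 275 ± 49.6 CPM in vehicle cells (adjusted p = 0.0927). It overlaps Pltp, a phospholipid transfer protein, over 1915 bases, and Pltp fell with a log2 fold change of -1.61 (adjusted p = 0.0224). Ctsz, a carboxypeptidase, averaged 132 ± 9.94 and 182 ± 65.8 CPM (adjusted p = 0.215), with 280 CPM in vehicle replicate 4 and 139 to 160 CPM in the other vehicle libraries; its log2 fold change was -0.46, and -0.18 without that library. Ctsl, a cysteine endopeptidase, averaged 478 ± 54.0 and 498 ± 84.2 CPM (adjusted p = 0.831). Ctsh, an aminopeptidase, averaged 12.4 ± 2.89 and 11.6 ± 2.29 CPM (adjusted p = 0.814). Neither difference passed the test. Ctsk, the collagen-degrading cathepsin known from osteoclasts, averaged 0.454 ± 0.127 CPM in S1P cells and 0.843 ± 0.589 CPM in vehicle cells and was too low to be tested.

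The glycosidases, which release sugars from glycans, glycogen and glycolipids, held 2 of the 3 members that fell. Of 10 tested, 2 fell, 6 had lower values with an unadjusted p under 0.05, and 5 did not overlap between groups, with a median log2 fold change of -0.47. The shares of all genes for these calls were 2.9%, 11.7% and 7.21%. Their summed level was 471 ± 58.3 CPM in S1P cells and 676 ± 112 CPM in vehicle cells, ranging from 428 to 555 CPM and from 568 to 821 CPM. Gaa, the acid glucosidase that digests glycogen, had 56.3, 38.3, 33.7 and 38.4 CPM in S1P replicates 5 to 8, against 81.1, 57.5, 61.3 and 212 CPM in vehicle replicates 1 to 4. The groups barely separated, and vehicle replicate 4 had far more than any other library. Its log2 fold change was -1.30 (SE 0.41, adjusted p = 0.0845), and without vehicle replicate 4 it was -0.68 and passed (adjusted p = 0.0481). Gaa passed in 5 of 18 fits and in 1 of the 8 that left out a library (adjusted p up to 0.211). Hexa, the alpha subunit of the hexosaminidase that acts on GM2 ganglioside, had 192, 119, 143 and 118 CPM in S1P replicates 5 to 8, against 261, 180, 208 and 199 CPM in vehicle replicates 1 to 4. S1P replicate 5 alone reached into the vehicle range, and the log2 fold change of -0.57 did not pass (SE 0.18, adjusted p = 0.0893). Without S1P replicate 5 it was -0.74 and passed (adjusted p = 0.0274). Hexa passed in 3 of 18 fits and in 1 of the 8 that left out a library (adjusted p up to 0.245).

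Among the other glycosidases, Glb1, a beta-galactosidase, averaged 63.6 ± 3.37 CPM in S1P cells and 83.1 ± 12.0 CPM in vehicle cells (adjusted p = 0.0832). The Glb1 symbol stood on a further row whose span lies inside Glb1 (6572 shared bases); it averaged 5.04 ± 0.806 and 4.40 ± 0.52 CPM and is left out of the counts of members. Gusb, the beta-glucuronidase, averaged 78.9 ± 4.93 and 91.8 ± 0.917 CPM with no overlap (adjusted p = 0.172). Idua, which acts on heparan and dermatan sulfate, averaged 8.03 ± 0.439 CPM in S1P cells and 11.2 ± 3.10 CPM in vehicle cells (adjusted p = 0.206). Naglu, of heparan sulfate breakdown, averaged 19.6 ± 2.71 CPM in S1P cells and 26.7 ± 14.7 CPM in vehicle cells (adjusted p = 0.407). Naglu reached its vehicle mean through replicate 4 at 48.7 CPM, and its log2 fold change of -0.44 became 0.02 without that library. Gla, the alpha-galactosidase, and Manba, the beta-mannosidase, had log2 fold changes of 0.13 and -0.02 and overlapping groups. Gla shares spans with Hnrnph2 and Rpl36a, and 9742 bases of Idua lie within the span shared with Dgkq.

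The 3 sulfatases, which remove sulfate from glycosaminoglycans, had 0 members past the threshold, with a median log2 fold change of -0.31, which was -0.10 without vehicle replicate 4. Ids, the iduronate sulfatase, averaged 189 ± 22.4 CPM in S1P cells and 235 ± 50.8 CPM in vehicle cells (adjusted p = 0.269). Sgsh, of heparan sulfate breakdown, averaged 15.04 ± 1.29 CPM in S1P cells and 19.8 ± 7.43 CPM in vehicle cells (adjusted p = 0.330), with 30.7 CPM in vehicle replicate 4; its log2 fold change was -0.39, and -0.10 without that library. Galns, of keratan and chondroitin sulfate breakdown, averaged 14.1 ± 1.42 CPM in S1P cells and 14.6 ± 2.84 CPM in vehicle cells (adjusted p = 0.874). All 3 pairs of groups overlapped.

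Among the 5 lipid, thioester and peptide hydrolases and their activator, 0 passed and 3 were lower at an unadjusted p under 0.05. The shares lower among all genes were 2.9% and 11.7%. The median log2 fold change of the 5 was -0.42. Psap, the precursor of the saposins that present sphingolipids to their hydrolases, had 1305, 979, 941 and 960 CPM in S1P replicates 5 to 8, against 1781, 1365, 1337 and 1956 CPM in vehicle replicates 1 to 4. S1P replicate 5 came close to the lowest vehicle library, and the other S1P libraries were well below it. The log2 fold change of -0.62 lay just outside the threshold (SE 0.17, adjusted p = 0.0562), and without S1P replicate 5 it was -0.74 and passed (adjusted p = 0.0347). Psap passed in 5 of 18 fits and in 1 of the 8 that left out a library (adjusted p up to 0.169). Lipa, the acid lipase that frees cholesterol from its esters, averaged 678 ± 105 CPM in S1P cells and 948 ± 316 CPM in vehicle cells (adjusted p = 0.226). Ppt1, which removes palmitate from proteins, averaged 188 ± 19.5 and 251 ± 53.0 CPM (adjusted p = 0.157), and it passed without vehicle replicate 4 (log2 fold change -0.55, adjusted p = 0.0115). Ppt1 passed in 4 of 18 fits and in 1 of the 8 that left out a library (adjusted p up to 0.355). It shares 529 bases of its span with Cap1, whose log2 fold change was 0.22 (adjusted p = 0.189). Tpp1, a tripeptidyl peptidase, averaged 151 ± 20.1 and 192 ± 22.4 CPM (adjusted p = 0.132). Pla2g15, a lysosomal phospholipase, averaged 22.2 ± 2.01 and 22.8 ± 4.55 CPM (adjusted p = 0.885). The summed level of these 5 genes was 1878 to 2349 CPM in S1P libraries and 2852 to 3169 CPM in vehicle libraries, without overlap. Psap and Lipa made up most of its mean in both groups.

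The 5 membrane proteins had 0 members past the threshold and a median log2 fold change of -0.29. Lamp1, a heavily glycosylated protein that lines the lysosomal membrane, had 1207, 965, 1020 and 943 CPM in S1P replicates 5 to 8, against 1195, 1098, 1138 and 1076 CPM in vehicle replicates 1 to 4. The groups overlapped through S1P replicate 5, and the log2 fold change was -0.12 (SE 0.12, adjusted p = 0.538). Lamp2, which serves in chaperone-mediated autophagy and in fusion of lysosomes with autophagosomes, had 862, 628, 861 and 727 CPM in S1P replicates 5 to 8, against 1294, 1039, 1222 and 670 CPM in vehicle replicates 1 to 4. Vehicle replicate 4 lay within the S1P range and the other 3 vehicle libraries above it. Its log2 fold change was -0.46 (SE 0.21, adjusted p = 0.213), and without vehicle replicate 4 it was -0.62 and passed (adjusted p = 0.0210). Lamp2 passed in 4 of 18 fits and in 1 of the 8 that left out a library (adjusted p up to 0.43). Scarb2, which carries glucocerebrosidase to lysosomes, averaged 84.5 ± 4.54 CPM in S1P cells and 112 ± 16.5 CPM in vehicle cells (adjusted p = 0.0802), and it too passed without vehicle replicate 4 (log2 fold change -0.51, adjusted p = 0.00460). Scarb2 passed in 5 of 18 fits and in 1 of the 8 that left out a library (adjusted p up to 0.227). Cd63, a tetraspanin of late endosomes and exosomes, averaged 711 ± 96.9 and 779 ± 119 CPM, and Mcoln1, a calcium channel, averaged 25.8 ± 3.15 and 31.4 ± 7.45 CPM. Neither difference passed (adjusted p = 0.608 and 0.351), and the log2 fold changes were -0.13 for Cd63 and -0.29 for Mcoln1, or -0.21 and -0.13 without vehicle replicate 4.

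Of the 3 V-ATPase subunits on the list, 0 passed the threshold. Their median log2 fold change was 0.03, and -0.09 without vehicle replicate 4. Atp6v0d1, of the membrane sector, averaged 81.9 ± 11.7 CPM in S1P cells and 115 ± 13.4 CPM in vehicle cells without overlap, just outside the threshold (log2 fold change -0.48, SE 0.13, adjusted p = 0.0517), and it passed in 7 of 18 fits. Atp6v1a, the catalytic subunit, averaged 289 ± 28.9 and 283 ± 53.0 CPM, and Atp6v1h, a regulatory subunit, 110 ± 11.1 and 105 ± 23.9 CPM. Their log2 fold changes of 0.03 and 0.06 did not pass (adjusted p = 0.912 and 0.846) and turned to -0.07 and -0.09 without vehicle replicate 4. Atp6v1a shares 276 bases of its span with Naa50, whose log2 fold change was 0.45 (adjusted p = 0.0885).

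The transcription factors showed no change past the threshold. The median log2 fold change of the 2 was -0.33, and 0.28 without vehicle replicate 4. Tfe3 had 70.0, 67.1, 61.2 and 62.5 CPM in S1P replicates 5 to 8, against 79.4, 70.9, 67.4 and 101 CPM in vehicle replicates 1 to 4. The groups overlapped slightly, and the log2 fold change was -0.29 (SE 0.14, adjusted p = 0.233), and -0.15 without vehicle replicate 4. Tfeb was low, at 3.39, 3.34, 1.91 and 2.73 CPM in S1P replicates 5 to 8, against 1.63, 1.78, 1.78 and 9.59 CPM in vehicle replicates 1 to 4. Vehicle replicates 1 to 3 lay under every S1P library, and vehicle replicate 4 above them all. Its log2 fold change was -0.38 with all libraries (SE 0.59, adjusted p = 0.715) and 0.72 without vehicle replicate 4 (adjusted p = 0.103). RNA levels do not report the nuclear entry by which these factors are controlled.

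Per kilobase of merged exon (lengths from GENCODE M21 for the same gene identifiers), the members with the highest levels were Psap, Lamp1, Ctsd and Cd63. Psap stood at 381 CPM per kilobase in S1P cells and 587 in vehicle cells, Lamp1 at 386 and 421, Ctsd at 263 and 323, and Cd63 at 193 and 212. On this scale Ctsf stood at 1.76 CPM per kilobase in S1P cells and 4.92 in vehicle cells, Neu1 at 3.18 and 5.72, and Man2b1 at 6.55 and 9.72. All 3 members that fell thus lay well below those 4 in level per length.

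Vehicle replicate 4 deviated from its group in both directions among the members. The log2 ratio of vehicle replicate 4 to the mean of vehicle replicates 1 to 3, with 0.5 CPM added to each, was above 0 in 18 members and below 0 in 17, from -0.82 for Lamp2 to 2.18 for Tfeb. Across the 35 members this ratio correlated with the GC content of the longest transcript, with Pearson's r of 0.828 and Spearman's rho of 0.802, a description over genes that share these libraries. Gaa, Naglu and Tfeb, at 59.5%, 59.8% and 63.2% GC, were the members furthest above in this library, and Lamp2, at 38.7% GC, the furthest below. Among members with log2 fold changes near 0, leaving this library out gave -0.17 in place of -0.06 for Ctsl, -0.019 in place of 0.09 for Ctsh, 0.012 in place of 0.13 for Gla and -0.12 in place of -0.02 for Manba. It likewise gave 0.070 in place of -0.05 for Galns and 0.067 in place of -0.04 for Pla2g15. Offsets that removed the GC trend of every library, not of this one alone, were chosen after seeing the data. They gave 13 members lower and 0 higher, against 7.05% lower and 7.8% higher among all genes.

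**Figure D4:**
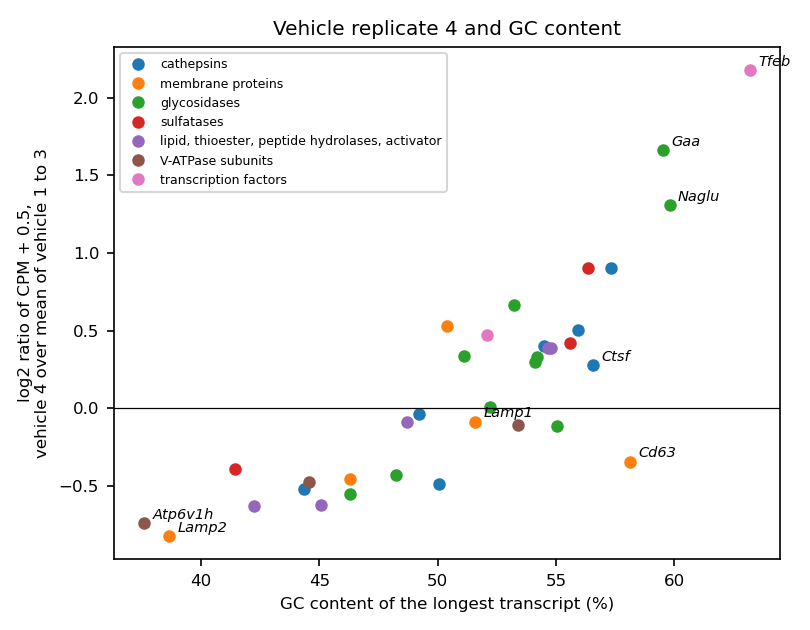
Log2 ratio of vehicle replicate 4 to the mean of vehicle replicates 1 to 3 for each tested member against the GC content (%) of its longest transcript; colours give the role. The ratio climbs with GC, from -0.82 for Lamp2 to 2.18 for Tfeb, over 35 members (Pearson's r 0.828).

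Genes around these members were counted in 7 further lists. Of 28 other lysosomal hydrolases and cofactors tested, 4 fell (14.3%) and 0 rose, against 2.9% and 5.6% of all genes. Their median log2 fold change was -0.38. Without vehicle replicate 4, 7 were lower, against 6.05% of all genes. Naaa, which hydrolyses N-acylethanolamines, had 21.2, 20.7, 17.7 and 18.1 CPM in S1P replicates 5 to 8, against 49.6, 37.4, 28.2 and 37.6 CPM in vehicle replicates 1 to 4 (log2 fold change -0.98, SE 0.17, adjusted p = 0.00931). Arsb, the arylsulfatase of dermatan and chondroitin sulfate, had 49.96, 36.1, 38.9 and 36.1 CPM in S1P replicates 5 to 8, against 74.9, 65.1, 64.3 and 76.9 CPM in vehicle replicates 1 to 4 (log2 fold change -0.80, SE 0.14, adjusted p = 0.00780). Neither gene's groups overlapped, and both calls held in all 18 fits. Arsa, the sulfatidase, averaged 59.7 ± 8.43 CPM in S1P cells and 97.9 ± 25.5 CPM in vehicle cells (log2 fold change -0.71, adjusted p = 0.0492), and passed in 10 of 18 fits, but not with vehicle replicate 1, vehicle replicate 2 or any S1P library left out (adjusted p up to 0.147).

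In the list for sorting and delivery to lysosomes, 1 of 25 tested genes fell and 0 rose, or 4% against 2.9% lower among all genes, with a median log2 fold change of -0.18. It was Gnptab, the enzyme that starts the mannose 6-phosphate tag on lysosomal hydrolases. Gnptab had 161, 158, 193 and 173 CPM in S1P replicates 5 to 8, against 277, 360, 395 and 283 CPM in vehicle replicates 1 to 4. The groups were far apart, at means of 171 ± 15.9 and 329 ± 58.1 CPM, 1.92-fold lower after S1P (log2 fold change -0.94, SE 0.14, adjusted p = 0.00527), and the call held in all 18 fits. Its span shares 349 bases with Dram1. The receptors of the tag did not pass: Igf2r had a log2 fold change of -0.06 and M6pr of 0.08 (adjusted p = 0.847 and 0.713). Both receptors were picked for mention after their values were seen.

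The other 4 lists of lysosomal and autophagy genes had 0 members past the threshold in either direction: 16 other V-ATPase subunits (1 lower at an unadjusted p under 0.05, 0 by DESeq2), 19 other lysosomal membrane proteins (3 and 2), 13 TFEB family partners and mTORC1 docking genes (1 and 1) and 27 autophagy genes (6 lower and 2 higher, and 3 lower by DESeq2). Their median log2 fold changes were -0.20, -0.16, -0.24 and -0.14. For scale, the unadjusted cut-off took in 11.7% of all genes as lower and 13.2% as higher. DESeq2 called 6.79% of all genes lower. Without vehicle replicate 4, 2 of the membrane proteins and 3 of the autophagy genes were lower, against 6.05% of all genes. Their 2 members with the highest means follow. Atp6ap1, an accessory V-ATPase protein, averaged 291 ± 28.2 CPM in S1P cells and 332 ± 34.5 CPM in vehicle cells, and Atp6ap2 averaged 149 ± 15.1 and 123 ± 32.7 CPM. Laptm4a, a membrane protein of late endosomes and lysosomes, averaged 1127 ± 93.2 CPM in S1P cells and 1224 ± 260 CPM in vehicle cells, and Cd164 averaged 420 ± 49.6 and 390 ± 63.1 CPM. Rragc, a GTPase that brings mTORC1 to lysosomes, averaged 220 ± 10.5 and 226 ± 33.7 CPM, and Fnip1 105 ± 17.2 and 110 ± 31.6 CPM. Sqstm1, the autophagy receptor p62, averaged 569 ± 122 and 587 ± 118 CPM, and Gabarap, of the Atg8 family, 468 ± 30.7 and 605 ± 85.1 CPM (adjusted p = 0.113). Among all genes 5.6% rose, and of 5 endogenous cathepsin inhibitors tested, 1 rose. It was Ctla2b, at 7.34 ± 1.57 CPM in S1P cells and 2.42 ± 1.08 CPM in vehicle cells (log2 fold change 1.59, SE 0.35, adjusted p = 0.0229), in 15 of 18 fits but not with vehicle replicate 2, S1P replicate 6 or S1P replicate 7 left out. Its close relative Ctla2a makes the assignment of reads uncertain. Cst3, the secreted cystatin C, also picked after its values were seen, averaged 297 CPM in S1P cells and 471 CPM in vehicle cells (log2 fold change -0.66, adjusted p = 0.165).

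**Figure D5:**
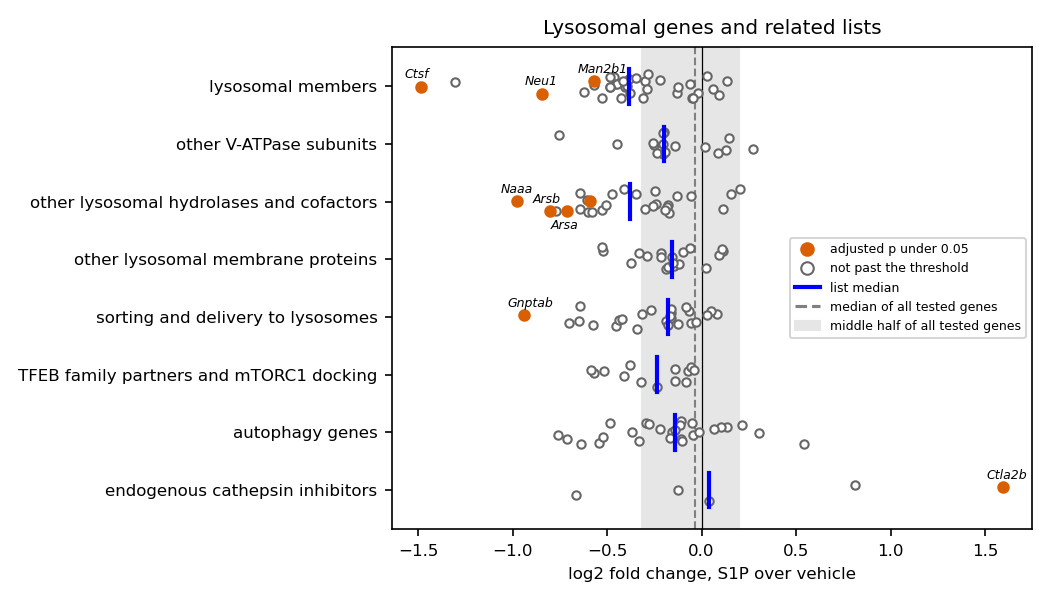
Log2 fold change, S1P over vehicle, of the lysosomal members and of 7 related lists, each point a tested gene, filled where its adjusted p was under 0.05. The bars mark list medians, lowest for the members (-0.39) and the other hydrolases (-0.38), with the middle range of all tested genes (-0.32 to 0.20) as a grey band.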

How the data were processed

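The authors deposited whole-number read counts per Ensembl gene with symbols and mm9 coordinates, 1 column per library and no scaling stated. STAR 2.5.3a and mm9 were used, per the submitters' processing notes; which counting tool, strand setting and annotation they used is not stated there. The 8 totals were nearly equal, so libraries may have been brought to a common size before deposit. Members were matched by symbol and columns by sample title. Low genes were removed in R 4.3.3 with edgeR 4.0.16 (filterByExpr, minimum count 10), and the rest were scaled by trimmed mean of M-values and tested with the robust quasi-likelihood F-test on the 8 libraries, S1P against vehicle with no covariate, Benjamini-Hochberg threshold 0.05. Alternatives were other scalings and filters, DESeq2 1.42.0, limma-voom (limma 3.58.1), 1 surrogate variable (sva 3.50.0), and leaving libraries out; GC offsets (lowess span 0.3) were added after seeing the data. Lengths and GC came from GENCODE M21 for 17497 identifiers, promoters from RefSeq GRCm38.p6. The members, lists and tests were chosen with earlier results of these data known. Values in every library are given for members past the threshold, the 6 tested members with the largest absolute log2 fold change, and Lamp1, Lamp2, Ctsd, Ctsb, Tfeb and Tfe3; of each related list the text names up to 3 members past the threshold, or the 2 with the highest mean. The values of 1 gene of these lists are not reported here.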

Additional observations from a re-analysis of the deposited data

Results flagged for a closer look

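In 11 of 72 member groups of 4 libraries (15.3%), 1 library passed Dixon's 95% critical value (0.829) for distance from the other 3. Chance gives about 1 in 20 groups where groups are independent, but these share the same libraries. The share over all genes was not computed, so the count cannot be read as particular to the members. Vehicle replicate 4 was the high library for Naglu (48.7 CPM, others 18.0 to 20.8), Ctsz (280 CPM, others 139 to 160), Tfeb (9.59 CPM, others 1.63 to 1.78) and Gaa (212 CPM, others 57.5 to 81.1). It was the low library for Scarb2 (87.3 CPM, others 117 to 122) and Atp6v1h (69.9 CPM, others 114 to 121). S1P replicate 5 was the high library for Psap (1305 CPM, others 941 to 979), Man2b1 (65.1 CPM, others 47.5 to 49.5), Ctsa (247 CPM, others 166 to 177) and Tpp1 (181 CPM, others 138 to 143). For Gusb, vehicle replicate 3 was low at 90.5 CPM, against 92.1 to 92.4 CPM in the other 3, a small gap in a tight group. The causes were not tested.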

How the results depend on the processing

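No member was called higher in any of the 18 fits, whereas the number called lower depended on the setting: 3 with all libraries, 5 under RLE size factors and under limma-voom, 13 under DESeq2, 12 with 1 surrogate variable, 13 without vehicle replicate 4 and S1P replicate 5 together, 13 with GC-smoothed offsets, and from 1 to 9 when each library was left out in turn. The count was 1 without vehicle replicate 1, vehicle replicate 3 or S1P replicates 6, 7 or 8, 2 without vehicle replicate 2, 8 without S1P replicate 5 and 9 without vehicle replicate 4. The members' median log2 fold change was -0.39, and -0.27 with the surrogate variable, -0.30 without both libraries, -0.28 with GC offsets and -0.43 to -0.22 leaving out each library. Over all genes, 663 were higher and 344 lower, with 1459 and 992 under the surrogate variable, 804 lower under DESeq2, 1178 and 934 without both libraries, 835 lower with GC offsets, and 333 to 1133 higher and 101 to 723 lower leaving out each library (fewest without S1P replicate 6, most without vehicle replicate 4). Other hydrolases called lower numbered 10 (surrogate variable), 12 (both libraries out), 9 (GC offsets) and 2 to 7 (each library out), against 4. Lower calls among other membrane proteins were 2, 2, 3, 1 and 0 to 2 (DESeq2, surrogate variable, both out, GC offsets, each out), against 0. Other V-ATPase subunits had 2 with both out, sorting genes 2 with the surrogate variable, and TFEB partners 1, 1, 2 and 0 to 1 (DESeq2, surrogate variable, both out, each out). Autophagy genes had 1 higher with the surrogate variable and 3, 4, 5, 3 and 0 to 3 lower (DESeq2, surrogate variable, both out, GC offsets, each out), and cathepsin inhibitors 0 to 1 higher (each out). The causes were not tested.

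Members whose log2 fold change turned sign were near 0, apart from Tfeb and Naglu, and none of these values passed the test. Tfeb was 0.059 under limma-voom, 0.46 with the surrogate variable, 0.62 without both libraries, 0.43 with GC offsets and -0.65 to 0.72 leaving out each library. Leaving out each library gave -0.59 to 0.018 for Naglu, -0.17 to 7.476e-05 for Ctsl, -0.12 to 0.067 for Manba and 0.012 to 0.27 for Gla. Galns was 0.036 (surrogate variable), 0.021 (both out), 0.11 (GC offsets) and -0.16 to 0.070 (each out). Pla2g15 was 0.014, 0.11, 0.082 and -0.19 to 0.067 in the same order. Cd63 was 0.010 with GC offsets, and Gla was -0.059 and Ctsh -0.19 without both libraries; Ctsh ran from -0.078 to 0.19 leaving out each. Atp6v1h was -0.017, -0.15, -0.12 and -0.091 to 0.12, and Atp6v1a was -0.020, -0.14, -0.090 and -0.073 to 0.12 (surrogate variable, both out, GC offsets, each out). Scaling by RLE factors or totals alone moved the median of all genes by -0.02 and 0.01 and left 31 of 35 members negative. No paired analysis was possible because the replicate numbers of the groups are not shared. Tfeb, Idua, Ctsh and Galns had the fewest counts of the tested members, where depth limits precision most.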
